A study of Mus musculus with 9 samples.

Results

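Neuro2a cells are an established mouse neuroblastoma line, derived from a tumour of the neural crest lineage that gives rise to the sympathetic nervous system and the adrenal medulla. The level and rank of genes are described here in Neuro2a cells that had received a control siRNA, siControl, for 48 h. The members were chosen by label: the 3 arrays titled as siControl replicates, of 9 arrays in the series, where the other arrays are from cells given siMyT1 or siLSD1. The series asked how Myt1 relates to the demethylase LSD1 in neural cells, and the control arrays show the expression state that both knockdowns started from. The cells were transfected with an siRNA, so they are not untreated cells, and the labels do not give its sequence. Whether the 3 replicates were separate cultures is not stated, so the SD over them may be technical. A clonal line was measured in bulk, and a low signal from few cells cannot be told apart from a low signal in every cell.

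Sympathetic neurons and chromaffin cells arise from neural crest cells that switch on a set of transcription factors, among them Phox2, Hand and Gata proteins, and then the enzymes of catecholamine synthesis. Neuroblastoma cells keep parts of this programme while they go on dividing. Lines differ in how far they resemble noradrenergic neurons or mesenchymal cells, and Neuro2a cells are widely used as a model of neurite growth, prion infection and neuronal gene control.

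Each array gave an intensity for 45101 probe sets, in deposited units whose scale is not given in the sources used here. A probe set is a group of short probes against a transcript, and each of 18193 named genes was read by its brightest probe set, judged by the 3-array mean. A level is the mean of the 3 arrays, ± is the SD over these arrays (n = 3), and a percentile is the rank of a level among the 18193 genes, with 100 as the brightest. Probes bind with different strength, so the order of genes below is an order of signal and not of transcript number. Among 6794 genes above background with several probe sets, the 2 brightest probe sets of the same gene differed by a median ratio of 1.99, and by 4-fold or more in 26.9% of these genes. Array sums ran from 197354 to 214204 units. Replicate 2 was the highest array for 64.7% of the genes above background and replicate 3 the lowest for 62.4%, with median ratios to the 3-array mean of 1.05 and 0.953.

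Background was set with 138 genes of olfactory, vomeronasal and taste receptors, keratin-associated proteins and defensins, families whose known sites of expression include sensory epithelia, hair and mucosa. Their median level was 0.0658, and their 95th percentile, 0.389 units, was taken as the background bound. By this rule 10825 of 18193 genes (59.5%) were above the bound, and 10427 of them were above it on each of the 3 arrays. Each count of list members below is to be read beside this 59.5% of all genes. The bound was exceeded by 7 of the 138 reference genes, the brightest being the defensin Defb41 at 3.18 ± 0.466 and the vomeronasal receptor Vmn1r148 at 3.10 ± 0.144. A gene at or below the bound is one that this probe set did not separate from the reference genes, which does not show that it was silent. The share above the bound was 43.9% for genes with 1 probe set and 75.4% for genes with several, and 3298 genes had probe sets on both sides of it.

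**Figure D1:**
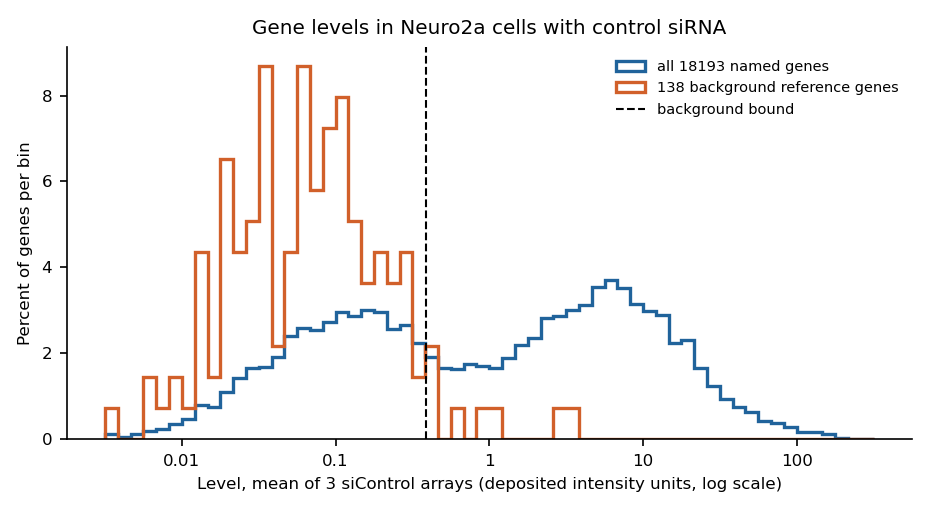
Distribution of gene levels (horizontal axis, mean of the 3 siControl arrays in deposited intensity units, log scale) for all 18193 named genes and for the 138 background reference genes, as percent of genes per bin (vertical axis), with the background bound of 0.389 as a dashed line. All genes form a dim peak near 0.162 and a bright peak near 6.19, with the fewest genes between them near 0.619, and the reference genes lie mostly in the dim peak.

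The brightest signal came from the machinery of protein synthesis. Of the 20 brightest genes, 15 encoded cytosolic ribosomal proteins, and ribosomal protein genes made up 34 of the 100 brightest. Rpl38, of the large subunit, was the brightest gene, with 199, 189 and 187 units on the 3 arrays. Rps29 (187 ± 5.73), Rps3a1 (183 ± 7.97), Rps7 (178 ± 13.5), Rps18 (177 ± 8.58) and Rps10 (174 ± 7.16), all of the small subunit, followed within the next ranks. The other ribosomal genes among the 20 were Rps28, Rplp0, Rpl7a, Rplp2, Rpl13a, Rps3, Rpsa, Rpl4 and Rpl19, at 156 to 171 units.

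The 5 genes among the 20 that encode no ribosomal protein were Eef1a1, the elongation factor that brings aminoacyl-tRNA to the ribosome (179 ± 10.7), Hspa8, the constitutive cytosolic chaperone (176 ± 13.9), Tpt1, a translationally controlled protein of growing cells (168 ± 8.64), Actg1, cytoplasmic gamma-actin (159 ± 10.9), and Npm1, nucleophosmin of the nucleolus (156 ± 10.6). The ranges over the 3 arrays overlapped in all 19 neighbouring pairs of this order, which sets values of different arrays against each other. Within arrays some pairs kept their order on all 3, as Rpl38 above Rps29, and others changed it, as Eef1a1 with Rps7. The 20 genes together held 2.98% of the summed signal of all named genes, the 100 brightest 11.5% and the 500 brightest 32.1%. Among the 100 brightest probe sets 57 had no single gene symbol, 45 of these because they are annotated to several genes, so the order covers only genes that the annotation names singly. Only 4 of the 20 were read by plain probe sets, whose names have no suffix letter. The letters of the others were a, s or x, of which only s and x mark shared or less specific probes.

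Over the whole ribosomal list, 45 of 48 genes were above the bound, beside 59.5% of all genes, with a median level of 140. The exceptions were Rpl3l (0.0320), a paralogue of Rpl3 known from muscle, Rps4l (0.0172) and Rps16 (0.00515). The Rps16 value rests on a single probe set and was under 0.006 on each array, although Rps16 is a core protein of every cytosolic ribosome. Rpl39 (2.09 ± 0.279), Rps27 (2.82 ± 0.0339) and Rps6 (3.19 ± 0.334) lay far under the list's median too. Subunits of the same particle thus differed widely in signal, and the part of probe binding in this was not tested.

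Promoter sequences were taken from RefSeq for assembly GRCm38.p6, and 42 of the 48 ribosomal genes matched. Ribosomal protein genes are known for a run of pyrimidines at the transcription start, from which the terminal oligopyrimidine tract of the messenger RNA begins. The promoters of 4 bright ribosomal genes are shown to let this tract be seen. They were picked from those whose start is C followed by at least 4 pyrimidines, so the tract is present by choice. Each stretch runs from 30 bases before the start to 20 bases from it, 5′ to 3′ on the gene's strand. The pyrimidine run at the start is in capitals. The ETS core CCGGAAG is in capitals as well where it lies in the stretch. They are at chr11:114668550-114668599 (plus strand) for Rpl38, chr17:33955646-33955695 (minus strand) for Rps18, chr17:27635225-27635274 (minus strand) for Rps10 and chr7:141447621-141447670 (plus strand) for Rplp2.
Rpl38: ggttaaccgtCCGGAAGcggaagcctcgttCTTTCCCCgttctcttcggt
Rps18: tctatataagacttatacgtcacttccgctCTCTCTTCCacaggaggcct
Rps10: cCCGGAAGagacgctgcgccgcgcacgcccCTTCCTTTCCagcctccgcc
Rplp2: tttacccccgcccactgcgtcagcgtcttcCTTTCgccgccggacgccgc
By this choice the tract began with C at the annotated start in each, and it ran for 8, 9, 10 and 5 bases. A start of C followed by at least 4 pyrimidines was found in 9 of the 42 ribosomal promoters (21.4%), in 3.79% of the promoters of the brightest 5% of genes and in 2.49% of all 27025 promoters in the table. The first start listed for a gene was used, and a start placed a few bases off would miss the tract.

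The brightest 5% of genes and the other genes above the bound had CpG-rich promoters more often than the background families. A window of 250 bases before to 50 bases after the start was called CpG-rich above 50% GC and above an observed to expected CpG ratio of 0.6. This held for 82.2% of 738 promoters of the brightest 5% of genes, 71.1% of 8083 promoters of the other genes above the bound, 0.862% of 116 background reference promoters and 33.9% of all promoters in the table. For genes at or below the bound only 76.4% had a promoter in the table, and no share is given. Gene lists with most members at background differed widely. Their shares ran from 8.33% of 12 promoters of immune and blood genes to 68.0% of 25 promoters of regional factors of the central nervous system. Rps3a1 was picked from bright genes called CpG-rich, so its CpGs are present by choice. Rpl38, the brightest gene, had 49.3% GC and was not called CpG-rich. The 150 bases before the start of Rps3a1, at chr3:86142669-86142818 (minus strand), and of the olfactory receptor gene Olfr1264 (level 0.0613), at chr2:90022065-90022214 (minus strand), are shown, with each CpG in capitals (16 and 0).
Rps3a1: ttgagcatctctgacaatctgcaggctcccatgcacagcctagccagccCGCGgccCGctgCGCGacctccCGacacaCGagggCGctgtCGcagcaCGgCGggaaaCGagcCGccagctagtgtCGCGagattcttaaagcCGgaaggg
Olfr1264: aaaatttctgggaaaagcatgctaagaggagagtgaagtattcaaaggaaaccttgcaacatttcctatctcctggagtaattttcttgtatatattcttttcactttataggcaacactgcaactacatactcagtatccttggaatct

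The ETS core CCGGAAG, searched on both strands, was in 21 of 42 ribosomal promoters (50%), in 32.8% of 64 mitochondrial ribosomal promoters, in 28.1% of 32 proteasome promoters and in 24.2% of 66 respiratory chain promoters. It was in 20.3% of the brightest 5%, 19.3% of all CpG-rich promoters, 0.862% of background promoters and 9.12% of all promoters. The motif holds CG, so its share moves with CpG content. The TATA box TATAAA, searched from 45 to 16 bases before the start, was in 0 of 42 ribosomal promoters, 1.90% of the brightest 5%, 21.6% of the background promoters and 2.36% of all promoters. It is shown for the liver gene Fabp1 and the muscle gene Myh1, both below the bound, from 45 bases before to 5 bases from the start, with TATAAA in capitals. The stretches are at chr6:71199834-71199883 and chr11:67200057-67200106, both on the plus strand.
Fabp1: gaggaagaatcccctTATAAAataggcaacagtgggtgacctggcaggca
Myh1: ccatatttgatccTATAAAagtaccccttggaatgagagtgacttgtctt
A match is a description of these letters, and binding of a factor was not measured.

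**Figure D2:**
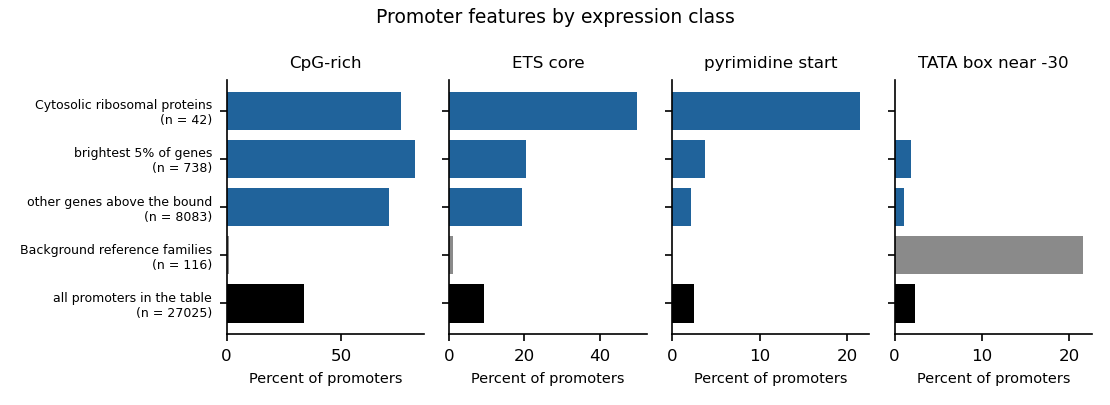
Percent of promoters (horizontal axis of each panel) that were CpG-rich, held the ETS core, began with the pyrimidine tract or held TATAAA 45 to 16 bases before the start, for ribosomal protein genes, the brightest 5% of genes, other genes above the bound, background reference families and all promoters in the table, with the number of promoters beside each name. The CpG-rich bars of the expressed classes stand at 71.1% to 82.2% against 0.862% for the background families, and the TATA panel runs the other way.

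Of 21 measured sympathoadrenal transcription factors 15 (71.4%) were above the bound, a share not far from the 59.5% of all genes, and their median percentile was 68.3. The description therefore rests on single genes. Hand2, a basic helix-loop-helix factor of sympathetic precursors, gave 50.3, 56.9 and 48.0 units, at the 98.2 percentile. Phox2a, a homeodomain factor of noradrenergic neurons, gave 21.3, 21.1 and 21.5 units. Gata2 (18.2 ± 2.13) and Gata3 (3.47 ± 0.113), zinc finger factors of sympathetic differentiation, Insm1 of neuroendocrine cells (16.8 ± 2.07) and Isl1, a LIM homeodomain factor (12.1 ± 0.728), were also above the bound on every array. Sox4, a SoxC factor of neuronal precursors, was the brightest of the list at 86.0 ± 4.89, and Lmo1, a LIM-domain adaptor and neuroblastoma oncogene, stood at 27.1 ± 1.61.

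The members not above the bound were Tfap2b (0.339), Tfap2a (0.167), Tbx3 (0.137), Eya1 (0.134), Lmo3 (0.0557) and Hmx1 (0.0270). Hand1 was near it at 0.493 ± 0.0706. The list therefore held bright and background members side by side, and 8 of its 20 neighbouring pairs overlapped between arrays.

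**Figure D3:**
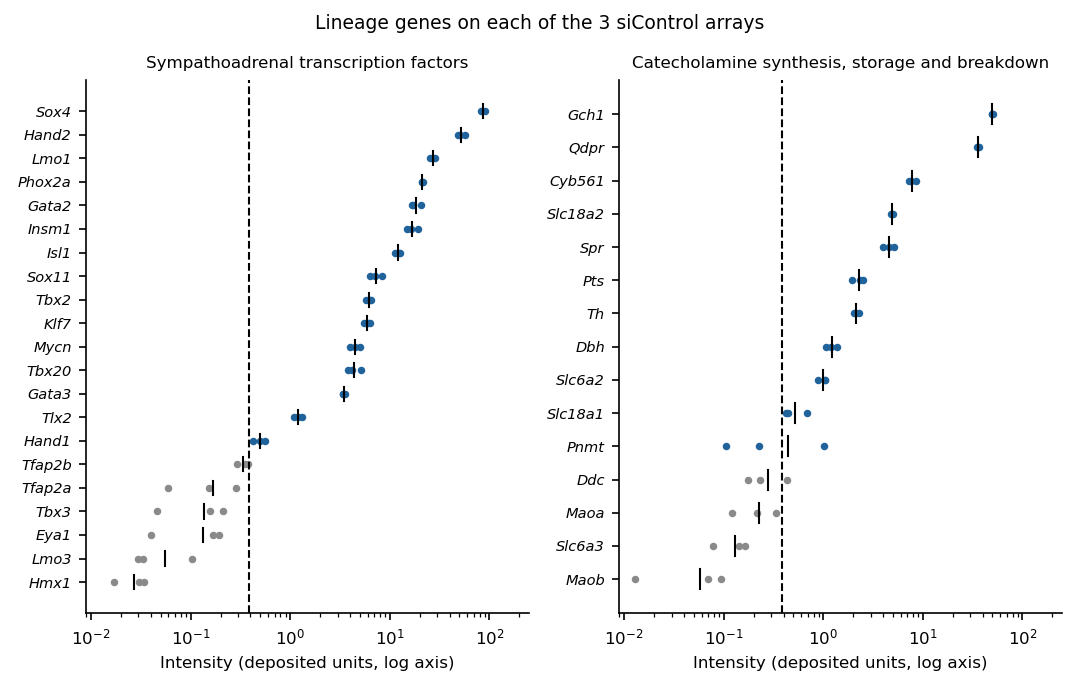
Intensity on each of the 3 siControl arrays (points, log axis) and the level (black tick) of the measured sympathoadrenal transcription factors (left) and the genes of catecholamine synthesis, storage and breakdown (right), in order of level, blue above and grey at or below the background bound (dashed line). Points of a bright gene lie close together, Hand2 at 48.0 to 56.9, while those of dim genes spread, and Pnmt crosses the bound on 1 array only.

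Genes of catecholamine handling were uneven. Of 15 genes 11 (73.3%) were above the bound, beside 59.5% of all genes, and the list's median percentile was 50.7. With the exception of 2 cofactor enzymes all were under 8 units. Gch1, the first enzyme in the synthesis of the tetrahydrobiopterin cofactor, gave 50.7, 49.5 and 49.1 units, and Qdpr, which regenerates the cofactor, 34.6, 36.2 and 36.5. Th, tyrosine hydroxylase, which catalyses the rate-limiting step, gave 2.12, 2.02 and 2.30 units, and Dbh, which makes noradrenaline from dopamine, 1.20, 1.37 and 1.08. Both were above the 95th percentile of the background families on each array and below their 99th percentile of 2.36. Of these 11 members 5 were above this stricter bound, the others being under it.

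Between these enzymes in the pathway stands Ddc, the aromatic amino acid decarboxylase, which was not above the bound at 0.232, 0.432 and 0.176 units, by the brighter of 2 probe sets. The vesicular monoamine transporter Slc18a2 gave 4.92, 5.02 and 4.80 units, and its paralogue Slc18a1 of chromaffin cells 0.519 ± 0.148. Slc6a2, the noradrenaline transporter, was at 0.987 ± 0.0806. Pnmt, which makes adrenaline, gave 0.229, 1.01 and 0.106 units, and without replicate 2 it was not above the bound. The monoamine oxidases Maoa (0.225) and Maob (0.0584) and the dopamine transporter Slc6a3 (0.129) were not above it.

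In each of the lists of other transmitter phenotypes a single gene exceeded 10 units. Of 14 cholinergic genes, 5 were above the bound. The nicotinic subunit Chrna3, of autonomic ganglia, gave 14.2, 13.2 and 12.5 units, but Chrnb4, its usual partner, gave 0.187, 0.241 and 0.0279. Chrna7 (2.98 ± 0.228), Chrnb2 (1.67 ± 0.277), acetylcholinesterase Ache (1.20 ± 0.0246) and Chrm1 (0.527 ± 0.0442) were the remaining members above it. The enzyme and transporters that define a cholinergic neuron, Chat (0.183), Slc18a3 (0.0718) and Slc5a7 (0.0996), were not above the bound. With the 99th percentile as the bound 2 of the 14 were above it, Chrna3 and Chrna7.

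For glutamate, GABA, glycine and serotonin 3 of 11 genes were above the bound: the glycine transporter Slc6a9 (13.4, 17.9 and 11.9 units) and the tryptophan hydroxylases Tph2 (2.27 ± 0.0704) and Tph1 (0.555 ± 0.0559). The vesicular glutamate transporters Slc17a6 and Slc17a7, the vesicular inhibitory transporter Slc32a1 and the glutamate decarboxylases Gad1 and Gad2 lay between 0.0555 and 0.172. The serotonin transporter Slc6a4 was at 0.0955 ± 0.0674, below the bound. With the 99th percentile as the bound Slc6a9 alone was above it.

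Most ligand-gated and amine receptors were at background. Among ionotropic glutamate and GABA-A receptor subunits 3 of 22 were above the bound, the kainate subunit Grik5 (3.94 ± 0.240), the AMPA subunit Gria2 (0.951 ± 0.0508) and the NMDA subunit Grin2d (0.647 ± 0.246). No GABA-A subunit was above it, the highest being Gabrb2 at 0.265, and with the 99th percentile as the bound Grik5 alone was. Among dopamine, serotonin, adrenergic and cannabinoid receptors 3 of 17 were above it, or 5 with the 90th percentile as the bound, and 2 of these stood far out. Cnr1, the cannabinoid receptor of neurons, gave 13.8, 17.0 and 14.2 units. Htr3a, the subunit that forms the ion channel receptor for serotonin, gave 11.4, 12.3 and 10.8. The next was Htr1b at 0.805 ± 0.139, while the dopamine receptors Drd1, Drd2, Drd3 and Drd4 lay between 0.0734 and 0.124.

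Receptors of growth and survival factors were above the bound in 16 of 24 cases (66.7%), near the 59.5% of all genes, and in 9 with the 99th percentile as the bound. Ret, the kinase that signals for GDNF family ligands, led with 16.8, 19.3 and 17.5 units. Its co-receptors were dim, with Gfra1 at 1.09 ± 0.241 and Gfra2 at 0.674 ± 0.155, and Gfra3 (0.324) and Gfra4 (0.274) were not above the bound. Ngfr, the low-affinity neurotrophin receptor, gave 13.04, 12.7 and 11.2 units and Alk, a kinase mutated in human neuroblastoma, 7.45, 8.72 and 7.17. Igf1r (6.64 ± 0.457), Insr (5.10 ± 0.158), Fgfr1 (4.65 ± 0.732) and Ntrk3 (3.69 ± 0.0479) followed. Erbb4 (0.0141), Met (0.0340), Erbb2 (0.0579), Kit (0.103) and Pdgfra (0.174) were not above it.

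Granins and genes of the regulated secretory pathway were bright, and most of the listed neuropeptide precursors were at background. Of 11 granin and prohormone-processing genes 10 were above the bound, with a median percentile of 90.2. The granins Scg2 (48.2, 53.7 and 48.6 units) and Chgb (49.9, 49.5 and 50.04), the peptide precursor Vgf (38.3 ± 3.34), Scg3 (30.2 ± 0.744), Scg5 (23.7 ± 0.0416), carboxypeptidase Cpe (16.8 ± 1.17) and Chga (15.2 ± 0.625) led the list. Only 1 of its 10 neighbouring pairs, Scg2 with Chgb, overlapped between arrays, so the order within the other pairs was the same on the 3 arrays. The prohormone convertase Pcsk1 was not above the bound (0.119 ± 0.0712), by its 1 probe set.

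Of 16 neuropeptide precursors 3 were above the bound: Cartpt (2.99 ± 0.120), Pomc (1.44 ± 0.153) and Npy (0.627 ± 0.0843), the last a peptide of sympathetic neurons. Gal (0.237), Vip (0.140), Sst (0.221), Tac1 (0.178) and Penk (0.113) were not. Cartpt, the highest of these 16, stood below 9 of the 11 granin and processing genes. With the 99th percentile as the bound Cartpt alone was above it.

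Genes of the neuronal cytoskeleton, growth cone and RNA-binding proteins were above the bound in 27 of 30 cases, with a median percentile of 90.7, and synaptic vesicle genes in 21 of 24, with 70.8. Prph, peripherin, an intermediate filament of peripheral neurons, gave 123, 114 and 105 units, at the 99.6 percentile by the brightest of its 4 probe sets. Of its other probe sets the next measured 4.99 and the dimmest 0.189. Dpysl3 (72.6 ± 2.14) and Basp1 (72.5 ± 3.36) of the growth cone, the microtubule protein Map1b (57.1 ± 1.71), the surface protein Cd24a (54.8 ± 3.27), Stmn2 (54.0 ± 0.718), Uchl1 (42.1 ± 1.45) and L1cam (41.8 ± 1.90) completed the leading 8. Tubb3, the beta-tubulin used to mark neurons, stood at 22.6 ± 1.59 and the RNA-binding proteins Elavl4, Elavl2 and Elavl3 at 15.8 to 21.9.

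The 3 members at background were also markers of neurons. Dcx, doublecortin of migrating neurons, gave 0.132, 0.208 and 0.0670 units, with none of its 4 probe sets above the bound. The neurofilament subunits Nefl (0.0612 ± 0.0174) and Nefm (0.0431 ± 0.00790) were likewise at background, while their partners in the same filaments, Ina (17.3 ± 0.875) and Nefh (8.80 ± 1.33), were above it on every array. Mature-neuron splicing factors were dim, with Rbfox3, the antigen NeuN, at 0.604 ± 0.104 and Rbfox1 at 0.702 ± 0.0621.

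Among synaptic genes the brightest were the vesicle GTPase Rab3c (26.4 ± 1.42), the synaptotagmins Syt4 (19.7 ± 0.894) and Syt1 (18.4 ± 0.712), the calcium sensor of release, the SNARE protein Snap25 (16.9 ± 1.06), the synapsin Syn2 (15.3 ± 1.58) and complexin Cplx1 (14.9 ± 2.38). Syt11 (14.7 ± 0.441) and Sypl (14.3 ± 1.02) followed. The second probe set of Snap25 measured 0.316, at background. Rims1 of the active zone (0.132), Rab3b (0.0576) and Vamp1 (0.352) were not above the bound. Over both neuronal lists and the granins, 58 of 65 genes were above it.

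**Figure D4:**
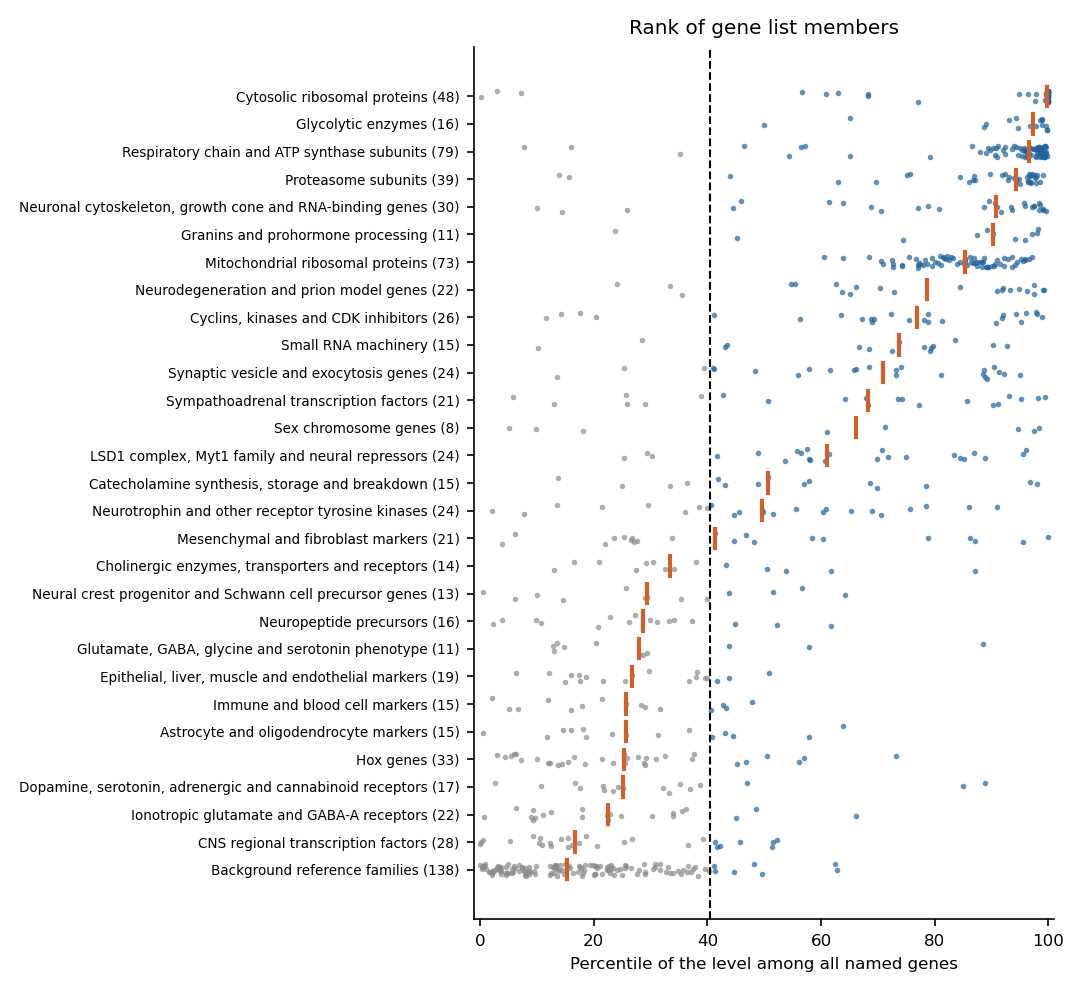
Percentile of each member's level among all 18193 named genes (horizontal axis) for every gene list, with the number of measured members in brackets, blue above and grey at or below the bound, the list's median as an orange bar and the bound as a dashed line. Ribosomal, glycolytic, respiratory and proteasome genes lie at the bright end, granin and neuronal cytoskeleton genes have medians at the 90.2 and 90.7 percentile, and the Hox, neuropeptide, glial, immune and epithelial lists and both lists of transmitter receptors have more members below the bound than above it.

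Markers of other cell types were mostly near background, with 23 of 70 genes above the bound over the mesenchymal, glial, immune and epithelial, liver, muscle and endothelial lists. Immune and blood genes had 4 of 15 above it and a highest level of 0.878, that of Csf1r. Without replicate 2 it was 2 of 15, and 0 with the 99th percentile as the bound. The leukocyte antigen Ptprc (0.0801), the microglial Aif1 (0.0143) and Itgam (0.0301) and the haemoglobin gene Hba-a1 (0.0692) were at background. Epithelial, liver, muscle and endothelial genes had 3 of 19 above it and a highest level of 1.23, that of Epcam. Without replicate 1 it was 5 of 19, with the 90th percentile as the bound 8 and with the 99th 0. Alb (0.0691), Cdh1 (0.145), Myog (0.0849) and Cdh5 (0.133), which define these types, were not above it.

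Glial genes had 5 of 15 above the bound, 1 with the 99th percentile as the bound and 2 by the median of a gene's probe sets, led by Cnp (3.39 ± 0.267) and Mbp (2.27 ± 0.178). Olig2 (0.00732), Mog (0.0629), Slc1a3 (0.0840) and Gja1 (0.0504) were at background, and Gfap (0.405 ± 0.126) was at the bound. Of 13 genes of neural crest progenitors and Schwann cell precursors 4 were above it, Mitf (3.48 ± 0.0806), Sox9 (2.07 ± 0.305), Erbb3 (1.33 ± 0.324) and Sox10 (0.555 ± 0.239). Sox2 (0.00696), Foxd3 (0.0628), Ednrb (0.259), Pax3 (0.367) and S100b (0.134) were not. With the 99th percentile as the bound Mitf alone was.

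The mesenchymal list differed within itself. Of its 21 genes 11 (52.4%) were above the bound, near the 59.5% of all genes, or 7 with the 99th percentile as the bound. Vim, vimentin, an intermediate filament of mesenchymal and of immature neural cells, gave 152, 152 and 139 units, among the brightest genes of the cells, and all 3 of its probe sets were at 65.7 units or more. Fn1, fibronectin, gave 29.7, 30.2 and 26.8, the transcription cofactor Wwtr1, known as TAZ, 13.3, 14.2 and 12.3, and the matrix protein Sparc 12.6, 11.8 and 12.9. The second probe set of Fn1 measured 0.227, at background. The fibroblast collagens Col1a1 (0.145), Col3a1 (0.150) and Col5a1 (0.230), Prrx1, a factor of mesenchymal neuroblastoma cells (0.143), Cd44 (0.107), Postn (0.0209), Tagln (0.0280) and Lum (0.132) were at background. Yap1, the paralogue of Wwtr1, was too, at 0.0363, 0.190 and 0.128 units, by both of its probe sets.

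Genes that place a cell along the body axis or in a brain region were largely at background. Of 33 Hox genes 6 were above the bound, 4 of the 7 in the HoxC cluster, 2 of the 9 in HoxA and 0 of the 9 in HoxB and of the 8 in HoxD. Hoxc10 gave 5.59, 6.40 and 5.70 units, followed by Hoxc9 (2.96, 2.37 and 1.13), Hoxc6 (1.89, 2.04 and 2.03) and Hoxc4 (1.18 ± 0.190). Hoxc8, which lies between them in the cluster, was at 0.306 ± 0.0744, and Hoxc5 and Hoxc13 were at 0.155 and 0.0255. Hoxa5 (0.778 ± 0.123) and Hoxa9 (0.656 ± 0.426) were near the bound, with 0.211 for Hoxa9 on replicate 1. With the 99th percentile of the background families as the bound, 1 of the 33, Hoxc10, was above it.

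Of 28 regional factors of the central nervous system 7 were above the bound and 0 above the 99th percentile, with a highest level of 1.41 for Dlx2, followed by Pou4f1 of sensory neurons (1.32 ± 0.111) and Pax6 (1.30 ± 0.123). Neurod6 (0.00316), Otx2 (0.00444), Gbx2 (0.0252), Tbr1 (0.0535) and Emx1 (0.0611) of the forebrain and midbrain were at background. Every regional factor was thus below the level of each of the 6 brightest sympathoadrenal factors, all at 16.8 units or more. Dlx2 in turn was above other sympathoadrenal factors, namely Tlx2 (1.20), Hand1 (0.493) and all those at background. These are orders of signal between different genes.

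Genes of dividing cells were bright, with 22 of 26 cell cycle genes above the bound (84.6%, beside 59.5% of all genes). Pcna, the replication clamp, gave 69.4, 69.6 and 71.7 units, Top2a, topoisomerase of mitotic chromosomes, 49.98, 48.6 and 43.7, and Cdk1, the mitotic kinase, 31.7, 31.4 and 30.4. Of the 3 probe sets of Top2a the second measured 0.857 and the dimmest 0.0221. Mki67, the proliferation antigen, stood at 19.3 ± 0.876 and Ccna2 at 19.1 ± 1.07. Cdk4 (47.7 ± 0.677) and Ccnd1 (24.3 ± 1.66), which act together in G1, were bright. The inhibitor Cdkn1b was bright as well, at 24.03, 34.95 and 23.3 units, with replicate 2 above the others. Cdkn2b (0.0957), Cdkn1c (0.0607), Cdk6 (0.0779) and the germ-cell cyclin Ccna1 (0.0497) were at background.

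The genes that the series knocked down were expressed. Kdm1a, which encodes LSD1, gave 28.1, 30.1 and 28.9 units, at the 95.6 percentile, and its second probe set 14.5. Myt1, a zinc finger factor of the nervous system, gave 4.602, 5.27 and 4.82 units by 1 probe set and 0.0605 by the other, which lay at background. Of 24 genes of the LSD1 complex, the Myt1 family and neural repressors 21 (87.5%) were above the bound, beside 59.5% of all genes. With the 99th percentile as the bound it was 13. The deacetylases Hdac2 (31.7 ± 1.95) and Hdac1 (13.1 ± 0.669), the CoREST scaffolds Rcor3 (15.0 ± 0.898) and Rcor2 (11.1 ± 1.62), and Zmym2 (11.6 ± 1.22) led with Kdm1a. Rest, the repressor of neuronal genes in other tissues, was at 2.38, 2.32 and 1.95 units. Snai1 (0.132), Snai2 (0.171) and Gfi1b (0.183) were not above the bound.

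The small RNA machinery that an siRNA depends on was present, with 13 of 15 genes above the bound. Ago2, the argonaute that cleaves targets, gave 21.2, 21.6 and 19.4 units, the scaffold Tnrc6a 16.8 ± 1.95, the nuclear nuclease Drosha 10.5 ± 0.891 and the exporter Xpo5 8.29 ± 0.166. The germline argonautes Piwil1 (0.0436) and Piwil2 (0.162) were at background. Among genes used in neurodegeneration and prion work 19 of 22 were above it, with Sod1 (78.9 ± 1.75), App, the amyloid precursor (70.4 ± 4.49), and Prnp, the prion protein (31.8 ± 0.311), bright, and Apoe (0.262), Sprn (0.224) and Lrrk2 (0.122) not above it.

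Xist, the RNA that coats the inactive X chromosome, gave 25.9, 25.8 and 23.7 units, and its 3 probe sets measured 25.1, 6.82 and 0.647. The Y-linked genes Eif2s3y (0.0245), Kdm5d (0.0426) and Uty (0.0808) were at background on each array, while their X-linked partners Eif2s3x (41.0 ± 2.73), Kdm5c (5.30 ± 0.211) and Kdm6a (2.85 ± 0.420) were above it. Over the Y chromosome 2 of 9 named genes were above the bound, with a highest level of 0.418. On the X chromosome 319 of 618 genes (51.6%) were above it, against 59.5% of all genes.

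Core metabolism and protein turnover ranked high, but below the cytosolic ribosome. Median levels were 41.4 for glycolytic genes, 34.2 for respiratory chain and ATP synthase subunits and 24.2 for proteasome subunits. All 16 glycolytic enzymes and glucose transporters measured were above the bound, at a median percentile of 97.3, led by Pgk1 (131 ± 1.92), Aldoa (124 ± 2.55) and Ldha (106 ± 8.09). Respiratory chain and ATP synthase subunits were above it in 76 of 79 cases, with Uqcrb of complex III at 132 ± 4.47 and Atp5b of the ATP synthase at 116 ± 11.4. The exceptions were the testis subunit Cox6b2 (0.0695), the muscle subunit Cox8b (0.0335) and Ndufb4 (0.257). Proteasome subunits were above it in 37 of 39 cases, with Psmb7 at 75.5 ± 4.21, and the exceptions Psma8 of testis (0.0677) and Psmb11 of thymus (0.0592) are tissue-restricted forms. All 73 mitochondrial ribosomal proteins were above it, at a median level of 11.7 against 140 for cytosolic ribosomal proteins.

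In 49 families with at least 2 measured members, the brightest paralogue was set against the others on each array. In 16 families (32.7%) it was at least 4-fold brighter than every other member on each of the 3 arrays, with members under the bound set to the bound. The same 4-fold gap separated the 2 brightest probe sets of a single gene in 32.5% of 5623 genes with a level at least 4 times the bound, so this share of families is near what probe sets of a single gene give. In 7 of the 16 families the brightest gene had several probe sets and each of them exceeded every probe set of the others: Rbfox2, Hand2, Ccnd1, Cdk4, Ago2, Aldoa and Hspa8. The gap was then not always 4-fold, since the dimmest probe set of Rbfox2 measured 1.28 against 0.702 for Rbfox1, and that of Hspa8 3.21 against 1.29 for Hspa2. With 3 arrays an exact sign-flip permutation test cannot go below p = 0.25, and no test was run.

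Among lineage factors, Hand2 was far brighter than Hand1, which lay close to the bound at 0.493 and under the 99th percentile of the background families, so the size of the ratio is not given. The 3 probe sets of Hand2 measured 51.7, 9.49 and 5.01. Myc, at 29.2, 29.1 and 30.004 units, was 5.85 to 7.27 times as bright as Mycn, the family member amplified in many human neuroblastomas, at 4.02, 4.97 and 4.46, and Mycl was at 0.397 ± 0.292. Gata2 was 2.63 to 3.996 times as bright as Gata4 (5.85 ± 0.632), which was followed by Gata3, and Gata1, Gata5 and Gata6 were at background. Sox4 was 8.81 to 9.87 times as bright as the next SoxC factor, Sox12 (9.34 ± 0.929), with Sox11 at 7.23 ± 1.06, while the SoxB1 factors Sox1, Sox2 and Sox3 were at 0.304 or less. Sox4 was read by 8 probe sets that ran from 86.0 to 0.0382, so this gap does not hold for each of them.

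In the cell cycle, Cdk4 gave 47.7, 47.1 and 48.4 units and Cdk6 0.0776, 0.0630 and 0.0931. Cdk6 was under the bound, and Cdk4 was 121 to 124 times the bound, a figure that moves with the bound chosen. The 3 probe sets of each gene did not overlap. Among D cyclins Ccnd1 was 4.81 to 5.36 times as bright as Ccnd3 (4.75 ± 0.282), and Ccnd2 was at 0.417 ± 0.0604, next to the bound. Among retinoblastoma proteins no member stood apart, with Rbl1 at 6.61, Rb1 at 4.22 and Rbl2 at 3.30.

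Splicing factors that switch during neuronal maturation differed between paralogues. Ptbp1, which is replaced by Ptbp2 when neurons form, gave 63.9, 65.2 and 58.0 units, against 11.2, 11.98 and 12.6 for Ptbp2 and 15.1 ± 1.38 for Ptbp3. The ratio of Ptbp1 to Ptbp3 was 3.91 to 4.38, so the 4-fold rule was met on some arrays only. These are the brightest probe sets, and the other probe sets of Ptbp1 measured 5.03 and 0.415, below the brightest of Ptbp2 and Ptbp3. Rbfox2 (7.95 ± 0.524) was brighter than Rbfox1 (0.702 ± 0.0621), with 4 probe sets for each. Rbfox1 lay under the stricter background bound, so the size of the ratio is not given. Elavl1, the ubiquitous member, was at 16.7 ± 1.33, within the range of 15.8 to 21.9 of the neuronal Elavl4, Elavl2 and Elavl3.

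In several structural and metabolic families, forms known from other tissues were at background. Tubb5 gave 135, 131 and 128 units against 32.3 ± 1.09 for Tubb4b, while the platelet Tubb1 was at 0.249. Tuba1a was 22.3 to 27.0 times as bright as Tuba4a (5.56 ± 0.114) among the 3 alpha-tubulins measured. Its paralogues Tuba1b, Tuba1c and Tuba3a had no singly named probe set and could not be compared. Tuba1a was read by 1 probe set, which has the suffix letter x, so signal from these paralogues cannot be told apart from its own. The cytoplasmic actins Actg1 and Actb (144 ± 7.58) differed by a ratio of 1.05 to 1.18, the skeletal and cardiac muscle forms Acta1 and Actc1 and the smooth muscle form Actg2 were at background, and the smooth muscle form Acta2 was at 7.95 ± 0.577 by 1 of 3 probe sets. Aldoa was 30.5 to 37.2 times as bright as Aldoc (3.66 ± 0.440). Ldha (106 ± 8.09) was far brighter than Ldhb (1.14 ± 0.192), of which 1 of 4 probe sets was above the bound. Ldhb lay under the stricter background bound given above, so the size of the ratio is not given. Hk1 (25.4 ± 1.92) and Hk2 (21.1 ± 1.81) were close, at a ratio of 1.15 to 1.25.

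Other pairs also leaned to a single member. Hspa8 (176 ± 13.9) was far brighter than Hspa2 (1.29 ± 0.0409). Hspa2 lay under the stricter background bound, so the size of the ratio is not given. The stress-induced Hspa1a (0.0195) and Hspa1b (0.142) were at background. Ago2 was 4.90 to 5.24 times as bright as Ago1 (4.10 ± 0.349), with Ago3 and Ago4 at 0.538 and 0.519. Ezh2, the Polycomb methyltransferase of dividing cells, was 4.17 to 5.41 times as bright as Ezh1. Atp1b3 was 8.57 to 9.24 times as bright as Atp1b1 (3.16 ± 0.0595), and the glial Atp1b2 was at 0.204. In 17 of the 49 families the brightest member was under 2-fold above the next on at least 1 array, among them Vim with Prph, Hsp90aa1 with Hsp90b1, Kif5b with Kif5c and Akt2 with Akt1.

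**Figure D5:**
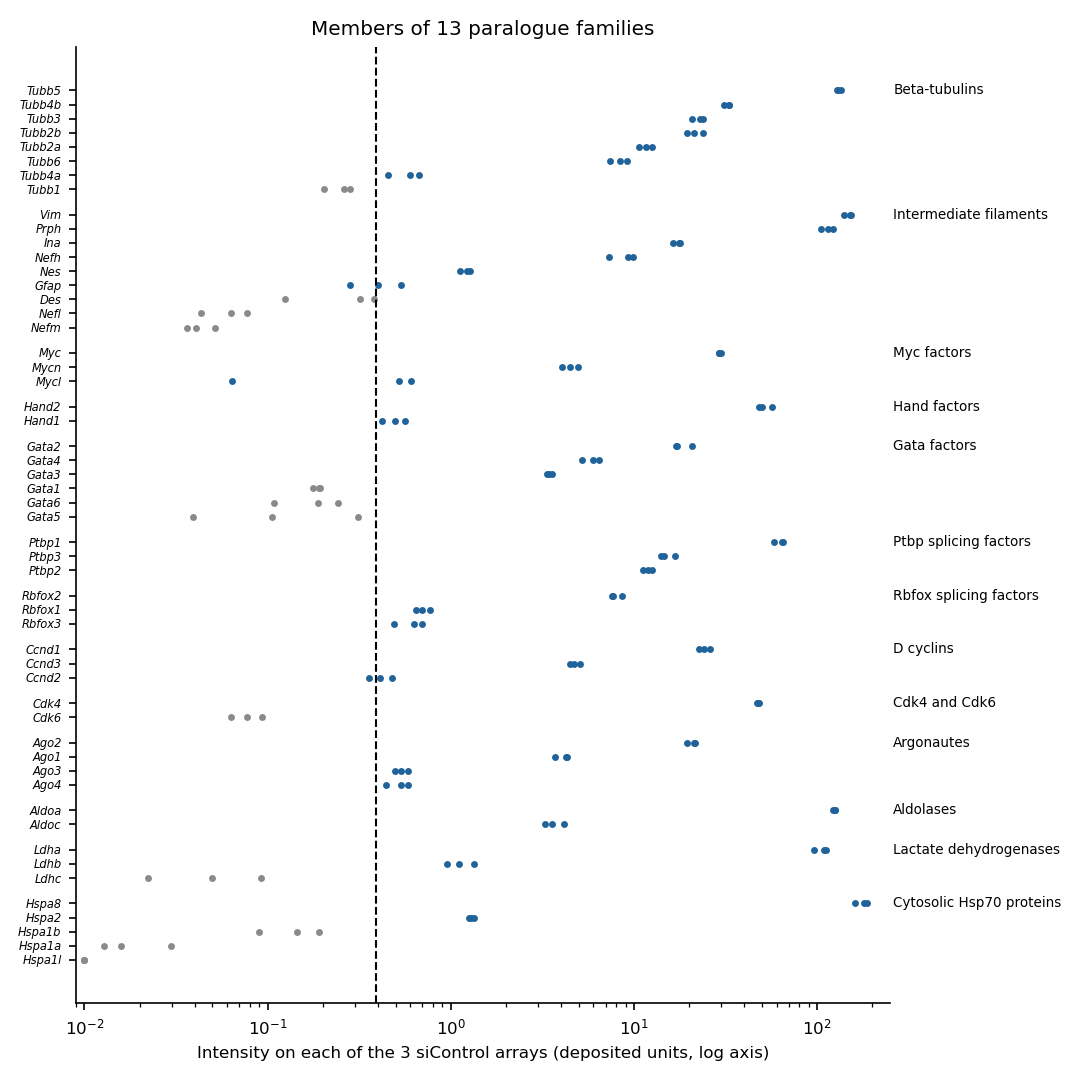
Intensity on each of the 3 siControl arrays (points, log axis) for all measured members of 13 paralogue families, in order of level within each family, blue above and grey at or below the background bound (dashed line). Hand2, Cdk4, Aldoa, Ldha and Hspa8 lie far to the right of their paralogues. Cdk4 lies at 121 to 124 times the bound. The intermediate filaments Vim and Prph and the Ptbp factors lie closer together.

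The 3 arrays ranked genes alike, and their spread grew towards background. Across all 18193 genes the Spearman correlation between arrays was 0.977 to 0.978, and across the 10825 genes above the bound 0.995 to 0.996, as a description across genes that share the same arrays. The median coefficient of variation was 5.77% for 6193 genes at 10 times the bound or more, 9.88% for 3491 genes at 2 to 10 times, 17.3% for 1141 genes at 1 to 2 times and 45.1% for 7368 genes at or below it. For 953 genes the arrays did not lie on the same side of the bound.

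The highest coefficients of variation above the bound were those of Pnmt (109%), the acute phase gene Saa3 (87.8%), the interleukin receptor gene Il6ra (84.1%), Ust (78.3%) and Mycl (73.5%), followed by Bmp7, Plppr3, Cep126, Fcgbp and Psors1c2. All 10 had levels under 1 unit. Saa3 gave 0.302, 1.004 and 0.195 units and Il6ra 0.110, 1.18 and 0.616, and replicate 2 was the highest array of both.

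At the bound itself the order lay within the spread between arrays. The genes just above 0.389 were Tmem213, Lims2, Upk2, Alpk3 and Hykk, at 0.389 to 0.391, and those just below were Znf41-ps, Esrp2, Hhatl, Pitx3 and Trpv6, at 0.388 to 0.389. Their SDs ran from 0.0153 to 0.155, far more than the gaps between them. The list members Ccnd2, Syn3, Sv2b, Gfap, Fgfr2, Cd8a and Mycl lay in the same range, at 0.397 to 0.418, and their calls should be read with these SDs.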

How the data were processed

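Total RNA of Neuro2a cells was biotin-labelled and hybridised to 1-colour arrays, per the labels' protocols. Per probe set and array, the authors deposited 1 intensity, linear in scale. How these were summarised, background-corrected and scaled, and so what 1 unit is, is not given in the sources used here. They were used as deposited, without further normalization. For arrays, their number (3) limits the precision.

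Of 45101 probe sets, 34945 had 1 gene symbol in the platform annotation, 932 had several and 9211 were not listed (64 control probe sets left out). Entrez identifiers of 34741 matched the RefSeq table of GRCm38.p6, which changed 0 symbols. Each gene was its probe set with the highest mean over the 3 arrays. Promoter windows came from RefSeq for GRCm38.p6, the first listed start per gene, and shares were given where at least 80% of a set had one. Listed genes without a singly named probe set were not analysed here.

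The members, lists and families were chosen with earlier results of these data known. Named genes were the 20 brightest, from each list up to 8 brightest, up to 8 below the bound and those that define its cell type, every measured member of a described family, 5 genes on each side of the bound, and the 10 with the highest coefficient of variation above it, with unnamed clones replaced. Other list members named here were chosen after their values were seen. The comparison of every probe set within families, the ETS core, the TATA window and the pyrimidine start were chosen after the data were seen. The alternatives were other scalings, probe set rules, bounds and fold rules, and leaving out each array. Scripts were tested on simulated data. Python 3.11.15, pandas 2.3.3, numpy 2.4.6 and matplotlib 3.10.9 were used.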

Additional observations from a re-analysis of the deposited data

How the results depend on the processing

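Quantile normalization, scaling to equal medians, the median of a gene's probe sets, and the use of plain probe sets only left the number of genes above the bound between 9304 and 10850, against 10825 as reported. With the 90th percentile of the background families as the bound, 0.281 units, it was 11560, and with the 99th, 2.36 units, 7568. Leaving out each replicate gave 10524 to 11266 genes. Members of the fixed lists above the bound numbered 481 as reported, 376 to 500 under these settings and 470 to 494 when a replicate was left out. Of 252 counts of single lists under alternatives, 229 were within 1.5 times the reported count and 23 were not. Most of these 23 came from the 99th percentile bound. With plain probe sets only, 8 of the 16 glycolytic and 21 of the 48 ribosomal genes were above it, fewer genes being measured. The families with 1 brightest member, 16 by the 4-fold rule, were 32 by a 2-fold rule, 9 by an 8-fold rule, 14 to 17 under other scalings and probe set rules, and 16 to 18 without a replicate. Of the 20 brightest genes, 13 were among the 20 brightest when the median of a gene's probe sets was used and 4 when only plain probe sets were used, since only 4 of the 20 are read by plain probe sets as reported. Without any 1 replicate 19 were. No paired analysis was possible because only 1 group was described and no test was run. Signal near background limits the calls: the coefficient of variation was 45.1% at or below the bound.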
